A study of Mus musculus with 37 samples.

Results

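The 10 genes Klrb1a, Klrb1b, Klrb1c, Klrb1f, Clec2d, Clec2i, Cd69, Klrg1, Klre1 and Klri2 encode lectin-like proteins of the mouse natural killer (NK) gene complex. They were taken by name from 53700 genes counted in 37 libraries. The rule uses no measured value, but earlier results of these data were known when the genes were chosen. The libraries were bulk RNA-seq of uterine NK (uNK) cells sorted from the pregnant mouse uterus at gestation day 9.5 to 10.5. Live single cells without CD3, CD4, CD8 and high CD11b, among other antigens, were gated. CD45+NKp46+ cells were taken and split by 2 inhibitory receptors, NKG2A (encoded by Klrc1) and the Ly49C/I pair. The paper lists the antibody for the former as NKG2AC/E, so the NKG2A gates may not rest on NKG2A alone. In WT C57BL6 mice there were 9 libraries of uneducated cells, which carried neither receptor, 9 libraries of NKG2A+ cells and 6 libraries with Ly49C/I, numbered 1, 2, 4, 5, 7 and 8. Mice labelled NKG2A KO C57BL6 gave 8 libraries of uneducated cells and 5 of Ly49C/I+ cells, numbered 4 to 8. Cells with both receptors were not collected, and neither how the NKG2A KO mice were made nor the exact age of the mice is given in the sources used here. No treatment other than the pregnancy, which all groups shared, is given in the labels. No source says that each library came from its own animal, so p-values measure only the spread between these libraries.

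The NKR-P1 receptors encoded by the Klrb1 genes are type II membrane proteins of NK cells. Klrb1b encodes the inhibitory NKR-P1B, which recognises Clr-b, the product of Clec2d. Klrb1f encodes NKR-P1F, which recognises Clr-g, the product of Clec2i, and Klrb1a and Klrb1c encode activating receptors, the latter being the NK1.1 antigen used to identify NK cells of C57BL/6 mice. Cd69 encodes an early activation antigen that opposes tissue egress through the receptor S1PR1, and Klrg1 encodes an inhibitory receptor for cadherins. KLRE1 pairs with KLRI1 or KLRI2, giving an inhibitory or an activating receptor.

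Between 13287163 and 18875033 reads per library were counted on genes. Levels are given as CPM, the counts scaled to a common library size, with sizes adjusted by the trimmed mean of M values (TMM). All 8 NK cell markers, Ncr1 among them, were above 0 in every group, and their summed level ranged from 7603 to 10879 CPM over the 37 libraries. Klrc1 was at 605 ± 90.7 CPM (SD, n = 9) in NKG2A+ cells and at group means between 2.15 and 4.27 CPM elsewhere. It was therefore low in all groups in which the genotypes were compared, because those cells were sorted as NKG2A-negative, and it does not check the genotype label there. The Ly49I gene Klra9 stood at 652 ± 95.5 CPM (SD, n = 6) in WT and 980 ± 153 CPM (SD, n = 5) in KO Ly49C/I+ cells, and at group means between 70.2 and 106 CPM in the other groups. Klra3, which encodes Ly49C, went against the name of the gate, with 55.3 ± 19.2 CPM in WT Ly49C/I+ cells and 137 ± 49.2 CPM in WT uneducated cells. Markers of other cells that moved with a group are given beside the results they accompany.

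All members except Klrg1 lie in 1 stretch of chromosome 6 around Klrc1 (GRCm38, GENCODE M21). In order along it are Klrb1a (chr6:128609227-128623533), Klrb1c (chr6:128778485-128789215), Klrb1b (chr6:128813706-128826331), Clec2i (chr6:128887588-128898167), Klrb1f (chr6:129045901-129057464), Clec2d (chr6:129180615-129186534), Cd69 (chr6:129267325-129275436) and Klre1 (chr6:129577905-129585827). Klrc1 itself follows at chr6:129666015-129678973, with Klri2 (chr6:129729041-129740484) 0.05 Mb beyond it. Klrg1 (chr6:122270596-122282882) is 7.38 Mb away from Klrc1. Exons of Klrb1b and Klrb1c overlap those of Gm44511, a gene annotated on the same strand that was at a count of 0 in all 37 libraries. Of all 50-base stretches of the transcripts, 27.2% of those of Klrb1b, 17.0% of those of Klrb1c and 9.92% of those of Klrb1a also occur in another gene, mostly in Gm44511 or in each other, whereas Klrb1f and Klrg1 share none. Ambiguous and not uniquely aligned reads were set aside in counting, and reads from such stretches can be among them. The levels of Klrb1a, Klrb1b and Klrb1c can therefore be too low and are less certain than that of Klrb1f. For the same reason the count of 0 does not show that Gm44511 gave no reads.

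The similarity of the NKR-P1 genes is shown by 60 coding bases of exon 4, read 5′ to 3′ from GENCODE M21 transcripts (GRCm38), the gene being on the minus strand for all but Klrb1f. Capitals mark bases that differ from Klrb1b.
Klrb1b, chr6:128818993-128819052: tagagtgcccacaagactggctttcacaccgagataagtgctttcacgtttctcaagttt
Klrb1a, chr6:128618537-128618596: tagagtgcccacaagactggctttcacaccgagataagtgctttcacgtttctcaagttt
Klrb1c, chr6:128784185-128784244: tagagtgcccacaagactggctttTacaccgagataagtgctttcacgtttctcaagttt
Klrb1f, chr6:129053727-129053786: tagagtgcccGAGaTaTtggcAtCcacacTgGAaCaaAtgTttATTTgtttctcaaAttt

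Klrb1a carried all 60 bases of Klrb1b and Klrb1c carried 59, so that reads from this stretch cannot be told apart between the first pair. Klrb1f had 42 of the 60. Over whole coding sequences the identity to Klrb1b was 82.3% for Klrb1a, 73.6% for Klrb1c and 70.0% for Klrb1f.

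Because the 4 Klrb1 genes were higher together in NKG2A+ cells, as given further on, the 250 bases before a RefSeq start of each are given (RefSeq, GRCm38.p6, 5′ to 3′ on the strand of the gene). RefSeq windows were at hand for 7 of the 10 members. Capitals mark the only matches to 5 motifs searched on both strands: T-box AGGTGNGA, RUNX TGTGGT, ETS AGGAAGT, STAT TTCNNNGAA and AP-1 TGANTCA.
Klrb1a, chr6:128622935-128623184: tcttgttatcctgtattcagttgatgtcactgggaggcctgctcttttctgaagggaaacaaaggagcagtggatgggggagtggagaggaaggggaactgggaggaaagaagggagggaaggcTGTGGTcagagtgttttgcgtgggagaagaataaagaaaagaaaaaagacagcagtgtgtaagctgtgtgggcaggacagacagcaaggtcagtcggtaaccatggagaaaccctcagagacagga
Klrb1c, chr6:128788642-128788891: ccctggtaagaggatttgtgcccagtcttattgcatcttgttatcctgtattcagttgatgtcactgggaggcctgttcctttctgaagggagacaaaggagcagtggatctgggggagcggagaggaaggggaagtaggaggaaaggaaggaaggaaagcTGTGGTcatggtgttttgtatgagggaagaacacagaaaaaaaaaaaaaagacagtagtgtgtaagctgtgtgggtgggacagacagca
Klrb1b, chr6:128826316-128826565: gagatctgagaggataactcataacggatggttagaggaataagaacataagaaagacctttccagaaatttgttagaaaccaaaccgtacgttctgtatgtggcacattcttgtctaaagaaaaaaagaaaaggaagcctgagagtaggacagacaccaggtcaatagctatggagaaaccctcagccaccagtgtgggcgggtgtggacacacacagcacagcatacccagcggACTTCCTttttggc
Klrb1f, chr6:129045651-129045900: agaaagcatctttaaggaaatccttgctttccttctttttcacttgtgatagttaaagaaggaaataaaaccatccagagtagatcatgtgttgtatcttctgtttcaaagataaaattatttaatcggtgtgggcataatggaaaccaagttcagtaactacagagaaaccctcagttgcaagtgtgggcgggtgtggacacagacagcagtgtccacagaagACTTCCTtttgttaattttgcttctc

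Klrb1a and Klrb1c each held 1 RUNX match, and their windows were 87.4% identical over 215 aligned columns. Klrb1b and Klrb1f each held 1 ETS match, on the other strand and so written ACTTCCT, within 26 bases of the start. Their windows were 60.2% identical over 244 columns. This hardly sets them apart, since the windows of Klrb1b and Klrb1a were 57.4% identical over 209 columns. Of 32851 promoter windows of the same length, 14.0% held the RUNX letters and 7.69% the ETS letters, 4.66% those of T-box, 7.02% those of STAT and 6.75% those of AP-1. One of the Klre1 windows also held a RUNX match, and the windows of Clec2d and Clec2i held none of the 5 motifs.

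Levels were compared between genes per kb of merged exons of all annotated transcripts. This length ran from 1213 bases for Clec2d to 6509 bases for Cd69, so the order depends in part on the annotation. In WT uneducated cells Klrg1 was highest, at 497 ± 102 CPM per kb (SD, n = 9), and its lowest library lay above the highest library of every other member. Klre1 (154 ± 32.0 CPM per kb) and Klrb1c (146 ± 34.0 CPM per kb) came next and their ranges overlapped. Klri2 (72.8 ± 17.7 CPM per kb), Klrb1b (61.5 ± 7.45), Klrb1f (51.2 ± 11.1), Klrb1a (25.9 ± 6.10) and Cd69 (22.0 ± 4.10) followed, each overlapping its neighbour in this order. By mean CPM without the length, Cd69 (143) stood above Klrb1b (137), Klrb1f (104) and Klrb1a (41.2) and below Klri2 (285). The ligand genes were lowest and were not separated from each other, with Clec2i at 6.18 ± 3.26 CPM per kb and Clec2d at 3.48 ± 2.20 CPM per kb.

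The order in the middle was not the same in NKG2A+ cells. Klrb1b stood at 154 ± 24.4 CPM per kb (SD, n = 9) there, and its libraries lay above all of those of Klri2 (88.0 ± 15.6 CPM per kb) and Klrb1f (84.6 ± 8.65 CPM per kb). Klrg1, at 298 ± 35.6 CPM per kb, overlapped Klrb1c (225 ± 25.4 CPM per kb), which it did not do in WT uneducated cells. The 4 NKR-P1 genes summed to 285 ± 46.5 CPM per kb in WT uneducated, 371 ± 50.1 in WT Ly49C/I+, 525.8 ± 40.1 in NKG2A+, 360 ± 49.3 in KO uneducated and 503 ± 42.8 in KO Ly49C/I+ cells. Of this sum, Klrb1c made up 50.9% ± 4.06 in WT uneducated and 42.7% ± 3.76 in NKG2A+ cells, and Klrb1b 22.2% ± 4.99 and 29.3% ± 3.50. Reads set aside from shared stretches can lower Klrb1b, Klrb1c and Klrb1a by different amounts, so these shares and the order are uncertain to that extent. The plot of levels per kb shows the order in each group.

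**Figure D1:**
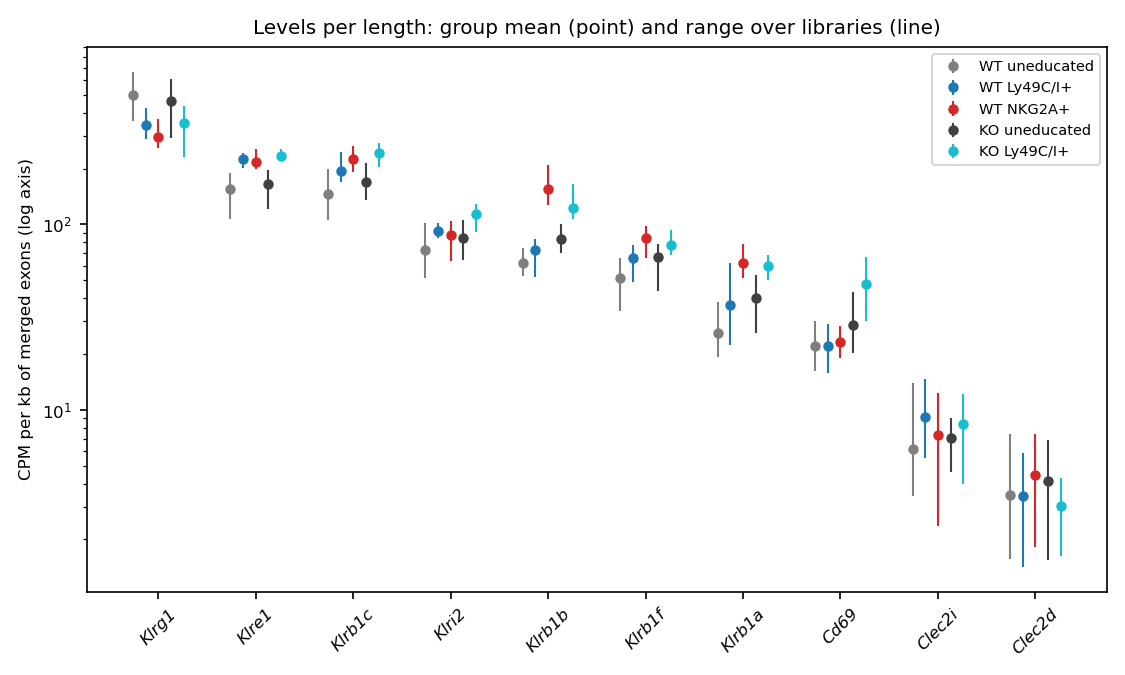
Level per length of each gene in the 5 groups, as the mean (point) and the range over libraries (line) in CPM per kb of merged exons on a log axis. Klrg1 is highest in WT uneducated cells at 497 CPM per kb and Clec2d lowest at 3.48 CPM per kb, and the Klrb1b points of NKG2A+ and KO Ly49C/I+ cells stand above those of the other groups.

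NKG2A+ cells were first compared with uneducated cells of WT mice, which asks how these genes differ in cells that carry NKG2A. All 4 NKR-P1 genes and Klre1 were higher in NKG2A+ cells and Klrg1 was lower. Of 9 members tested, 5 were called higher and 1 lower at an adjusted p of 0.05 (edgeR quasi-likelihood test, Benjamini-Hochberg over 9339 genes), while 7.47% of all genes tested were called higher and 7.56% lower. The median log2 fold change was 0.49 over the members tested and 0.01 over all genes. Of the members, the NKR-P1B gene Klrb1b had the largest difference. Its level was 118 CPM in the lowest, 133 in the median and 166 in the highest of 9 uneducated libraries, and 283, 340 and 467 CPM in the 9 NKG2A+ libraries. The groups did not overlap, a 2.52-fold difference (log2 fold change 1.33, SE 0.0944, adjusted p = 7.20e-09), and only 1 gene had a smaller p. Klrb1a, for an activating receptor, ran from 30.8 through a median of 41.3 to 61.0 CPM in uneducated and from 81.9 through 93.7 to 124 CPM in NKG2A+ cells. Again all 9 NKG2A+ values exceeded all 9 uneducated ones, with a 2.41-fold difference (log2 fold change 1.27, SE 0.134, adjusted p = 2.58e-06). The share of all genes without overlap is not given for any population comparison. Non-overlap there only describes the member named and does not set it apart from other genes.

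The other pair of NKR-P1 genes differed less. Klrb1c, the NK1.1 gene, had 312, 411 and 587 CPM as lowest, median and highest values in uneducated cells and 567, 654 and 786 CPM in NKG2A+ cells (log2 fold change 0.62, SE 0.117, adjusted p = 0.000928). Klrb1f, for the receptor of Clr-g, had 69.4, 109 and 134 CPM in uneducated and 134, 172 and 199 CPM in NKG2A+ cells (log2 fold change 0.73, SE 0.119, adjusted p = 0.000229). For these genes the ranges overlapped at their ends, with 7 and 8 of the 9 NKG2A+ libraries above all uneducated ones. Klre1 was at 372, 576 and 665 CPM in uneducated and at 692, 742 and 888 CPM in NKG2A+ cells, without overlap (log2 fold change 0.49, SE 0.106, adjusted p = 0.00297). Klrg1 moved the other way, from 509, 702 and 941 CPM to 364, 416 and 523 CPM, and 8 of the 9 NKG2A+ libraries were below all uneducated ones (log2 fold change -0.73, SE 0.107, adjusted p = 7.53e-05).

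The remaining members did not pass. The log2 fold change was 0.28 for Klri2 (95% interval -0.0026 to 0.56, adjusted p = 0.181), 0.09 for Cd69 (interval -0.13 to 0.31, adjusted p = 0.637) and 0.26 for Clec2i (interval -0.33 to 0.85, adjusted p = 0.607). Cd69 overlapped between the groups, with 106, 140 and 197 CPM in uneducated and 125, 148 and 185 CPM in NKG2A+ cells. Clec2d, the Clr-b gene, had at most 9.01 CPM in any WT library and missed the filter of 5 CPM in this comparison. Without that filter its log2 fold change was 0.37 with an adjusted p of 0.617.

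**Figure D2:**
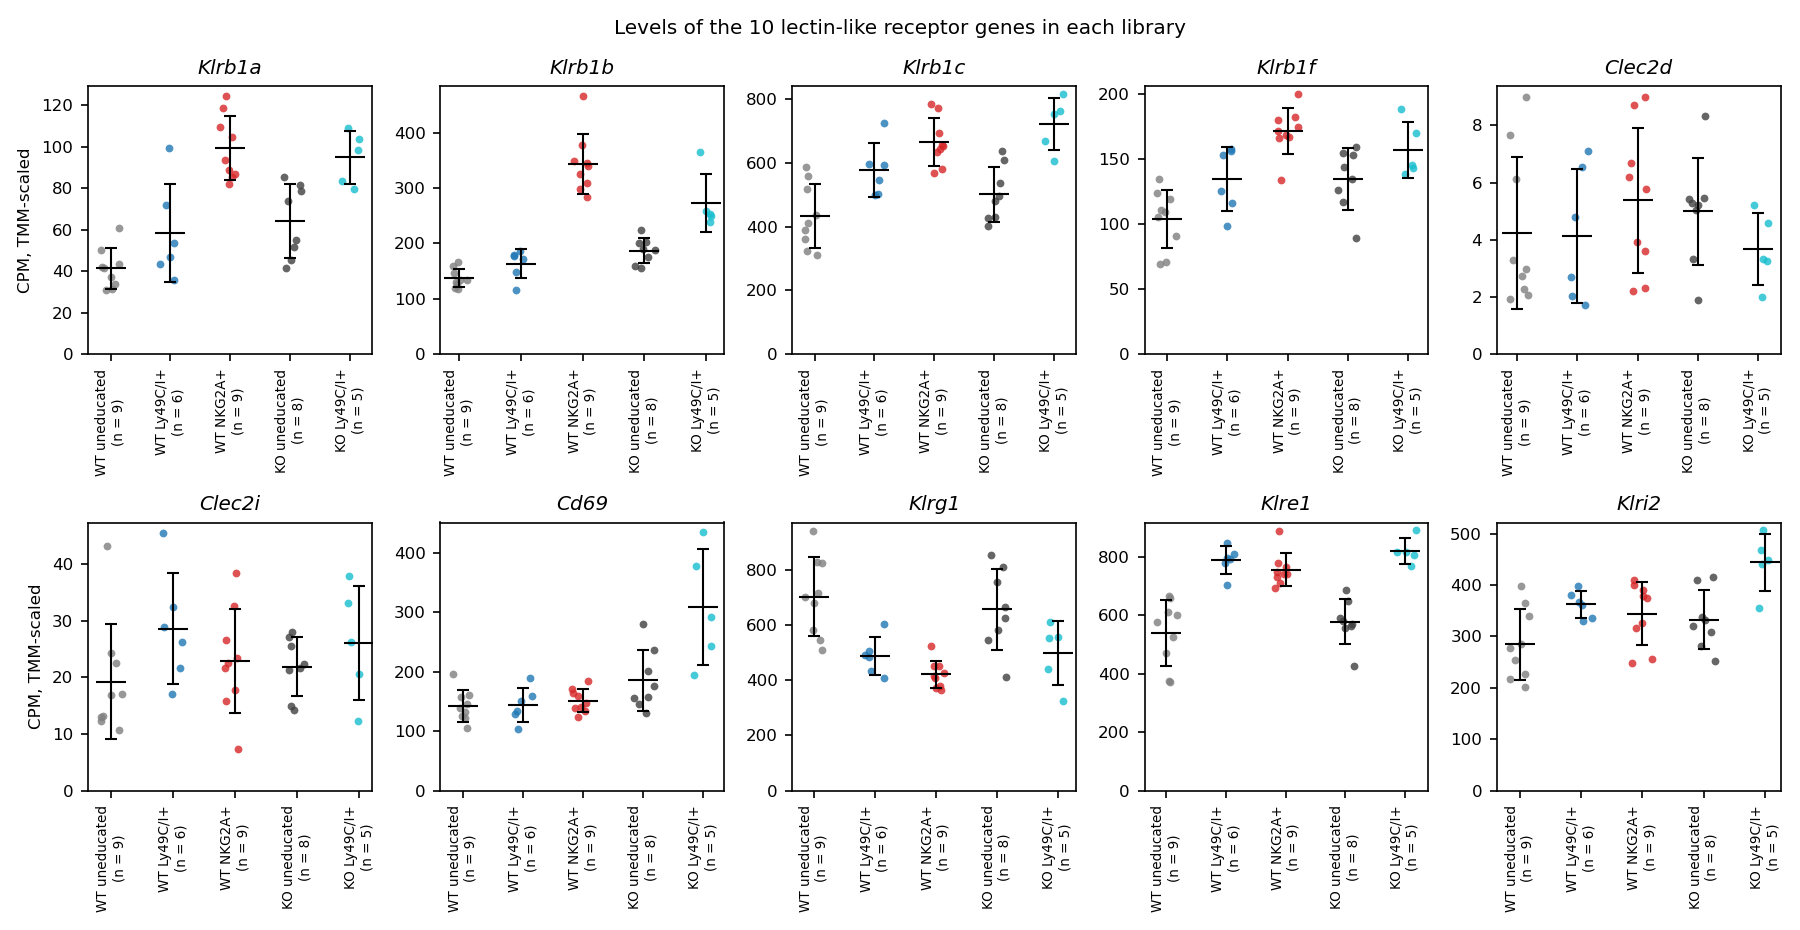
Level of each of the 10 genes in each of the 37 libraries (points, CPM scaled by TMM, linear axes from 0), with the group mean and SD as bars. For Klrb1a, Klrb1b and Klre1 all 9 NKG2A+ libraries lie above all 9 WT uneducated libraries (the share of all genes that do so is not given), and Cd69 is highest in KO Ly49C/I+ cells, at 195 to 435 CPM.

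Genes that act with these receptors also differed. Of 9 signalling partners 2 were higher in NKG2A+ cells, the kinase gene Lck (log2 fold change 0.74, adjusted p = 0.00118) and the adaptor gene Hcst (0.45, adjusted p = 0.0178), and none was lower. All 4 genes of lymphocyte egress that are reported here were higher, namely Klf2 (log2 fold change 1.02, adjusted p = 0.0017), S1pr5 (1.5, adjusted p = 0.00178), S1pr1 (1.84, adjusted p = 0.00936) and S1pr4 (0.82, adjusted p = 0.0212), while Cd69 itself did not pass. Of 8 genes associated with NK maturation 6 were higher, such as Ly6c2 (log2 fold change 1.38) and Itgam (1.08), and Gzmb was lower (-0.68). Among 5 residency-associated genes tested, Cxcr6 was higher (2.86) and Itga1 lower (-0.36). The cadherin gene Cdh1, for a ligand of KLRG1, was lower (-0.71, adjusted p = 0.0242). Of 3 other lectin genes of the complex tested, Klrk1, which encodes NKG2D, was higher (0.71, adjusted p = 9.41e-05), and of 12 immediate early genes 4 were, including Dusp1 (0.61).

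Markers of other cell types moved with this comparison, and whether their RNA came from other cells was not tested. The 4 erythroid markers summed to 190, 561 and 1210 CPM (lowest, median and highest) in uneducated and to 640, 1342 and 2489 CPM in NKG2A+ cells, and 2 of them were called higher. The 7 T cell markers summed to 41.8, 98.8 and 153 CPM and to 72.2, 110 and 184 CPM, with Cd3d and Cd3e called higher and Cd4 and Cd8a at 0 in the median library of both groups. Epcam and Cdh1, the only 2 of the 6 epithelial or trophoblast markers tested, were lower. The 6 summed to 200, 258 and 331 against 67.9, 150 and 192 CPM, and Tfap2c of these was at 0 in all libraries of both groups. Pecam1, the only 1 of the 4 endothelial markers tested, was lower as well. Those 4 summed to 219, 251 and 343 against 122, 169 and 201 CPM. All but Pecam1 missed the filter, and Emcn was at 0 in all uneducated libraries. NKG2A+ libraries 1, 3 and 4 had the highest sums of the 6 stromal or decidual markers, at 499, 287 and 896 CPM. Nearly all of this came from Prl8a2 alone, at 491, 282 and 889 CPM. Without these libraries the same number of members, 6, was called. In bulk libraries fewer cells with a transcript and less of it per cell cannot be told apart, and the part of these markers in the results was otherwise not tested.

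Ly49C/I+ cells were then compared with uneducated cells of WT mice. Klre1 was higher and Klrg1 lower. Of 9 members tested 1 was called higher and 1 lower (edgeR, 9292 genes), while 4.25% of all genes were called higher and 5.05% lower. Klre1 was at 705 CPM in the lowest, 796 in the median and 848 in the highest of 6 Ly49C/I+ libraries. All lay above the 9 uneducated libraries (log2 fold change 0.54, SE 0.123, adjusted p = 0.0116). Klrg1 was at 408, 488 and 603 CPM, and 5 of 6 libraries were below all uneducated ones (log2 fold change -0.54, SE 0.131, adjusted p = 0.0161). This call was lost with offsets for GC content and length (adjusted p = 0.0612) and when Ly49C/I+ library 7 was left out (0.0514).

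The NKR-P1 genes did not pass in this comparison. Klrb1c, at 499, 570 and 725 CPM, had a log2 fold change of 0.40 (95% interval 0.11 to 0.69, adjusted p = 0.0745). It passed with edgeR's likelihood ratio test (adjusted p = 0.0471), DESeq2 (0.0356), GC and length offsets (0.0425), all groups in 1 fit (0.0150) and the replicate number as a block (0.0317). Klrb1a ranged widely, from 35.8 through 50.04 to 99.3 CPM (log2 fold change 0.49, adjusted p = 0.148). Klrb1b was at 116, 175 and 187 CPM (0.24, adjusted p = 0.189) and Klrb1f at 98.5, 139 and 157 CPM (0.36, adjusted p = 0.143). Cd69, at 103, 142 and 189 CPM, differed by 0.001 on the log2 scale, with a 95% interval from -0.29 to 0.29. With all groups in 1 fit Klrb1a (adjusted p = 0.0498) and Klrb1f (0.0442) also passed, as did Klrb1b with GC and length offsets (0.0472). With these offsets and the block together Klrb1b (0.49, adjusted p = 0.0244) and Klrb1f (0.58, adjusted p = 0.0158) passed. Klri2 had 0.34 (adjusted p = 0.125, but 0.0420 with the block and 0.0395 without uneducated library 6) and Clec2i 0.56 (adjusted p = 0.247). Clec2i depended on 1 library, since without uneducated library 5, its highest at 43.2 CPM, the value was 0.82 (adjusted p = 0.0315). Clec2d missed the filter and had -0.02 without it (adjusted p = 0.985).

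Of the associated genes, Lck (0.63) and Inpp5d (0.57), which encodes the phosphatase SHIP1, were higher, and Ptpn11 (-0.72), which encodes the phosphatase SHP-2, was lower, among 9 signalling partners. None of these 4 egress genes was called. Of the residency-associated genes Rgs1 (0.38) and Rgs2 (0.51) were higher, Ly6c2 (0.98) and Tbx21 (0.52) of the maturation genes were higher and Gzmb (-0.58) lower, Klrk1 was higher (0.49), and Junb, Dusp1 and Ier2 of the immediate early genes were higher. All had adjusted p between 0.00927 and 0.0472. Ly49C/I+ libraries 1 and 2 had the highest sums of the 7 macrophage or monocyte markers, at 365 and 226 CPM. Erythroid markers summed to 766, 1090 and 2462 CPM in Ly49C/I+ cells and none was called. Epcam of the epithelial or trophoblast markers (log2 fold change -1.11) and Pecam1, the only endothelial marker tested (-0.69), were lower. The epithelial or trophoblast markers summed to 200, 258 and 331 CPM (lowest, median and highest) in uneducated and 96.0, 171 and 237 CPM in Ly49C/I+ cells. For the endothelial markers the sums were 219, 251 and 343 against 142, 168 and 218 CPM. The part of all these markers in the results was not tested, beyond a fit without libraries 1 and 2, in which as many members were called.

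**Figure D3:**
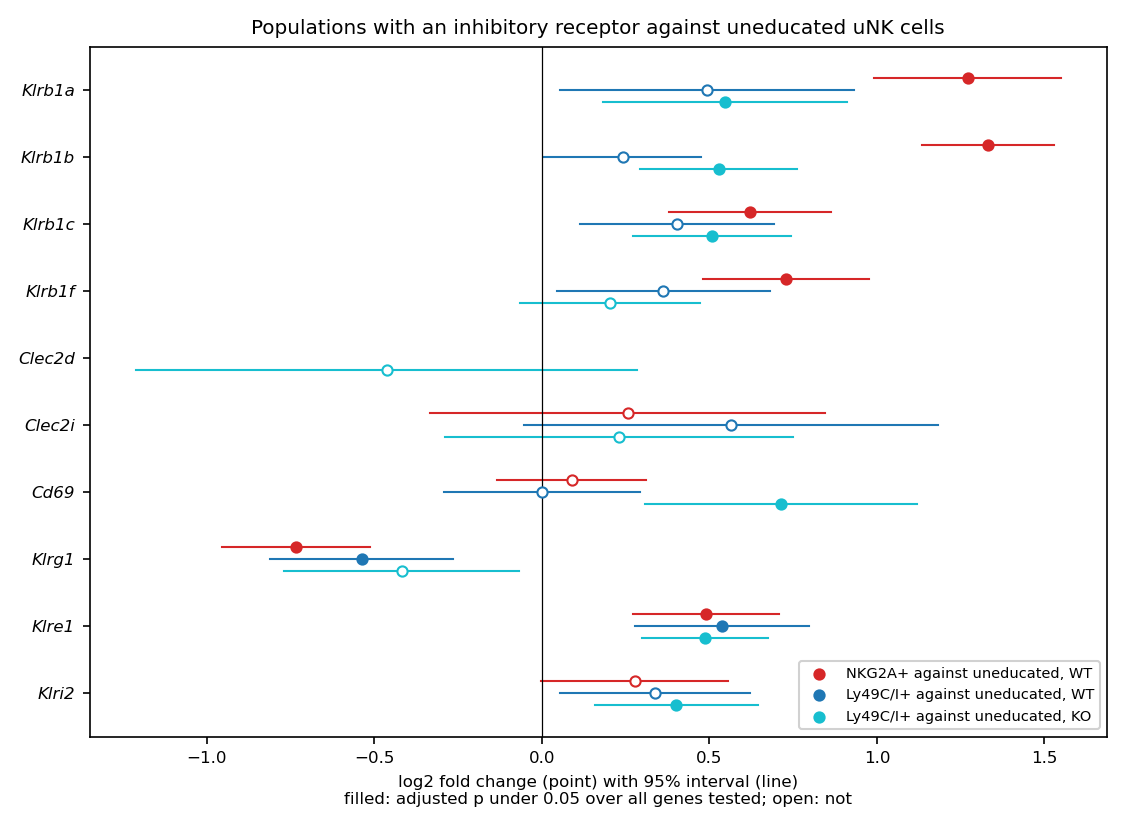
Log2 fold change (point) with its 95% interval (line) of each gene in the receptor-bearing populations against uneducated cells of the same genotype, where filled points have an adjusted p under 0.05 over all genes tested. Klrb1a and Klrb1b of NKG2A+ cells lie farthest right, at 1.27 and 1.33, and Klrg1 is left of 0 in all 3 comparisons.

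A direct comparison of both receptor-bearing populations of WT mice tested whether the effects of the receptor populations differed. Klrb1b and Klrb1a were higher in NKG2A+ cells, 2 of 9 members tested, and none was lower, while 1.31% of 9308 genes were called higher and 1.42% lower (edgeR). For Klrb1b all 9 NKG2A+ libraries, from 283 CPM upwards, lay above all 6 Ly49C/I+ libraries, of at most 187 CPM, a 2.11-fold difference (log2 fold change 1.08, SE 0.115, adjusted p = 3.86e-05). For Klrb1a, 4 of 9 NKG2A+ libraries lay above the highest Ly49C/I+ library of 99.3 CPM (log2 fold change 0.77, SE 0.184, adjusted p = 0.0312). The latter call was lost without a filter on low counts (adjusted p = 0.0880), with GC and length offsets (0.0713), with the replicate number as a block (0.0516), with both (0.0944), without NKG2A+ libraries 1, 3 and 4 (0.10), and on leaving out any 1 of NKG2A+ libraries 1 and 2 or Ly49C/I+ libraries 2, 4, 5 and 8 (0.0505 to 0.0786).

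Klrb1f had a log2 fold change of 0.35 (95% interval 0.13 to 0.58, adjusted p = 0.0834; 0.0341 with DESeq2 and 0.0463 without NKG2A+ library 9) and Klrb1c of 0.21 (0.02 to 0.39, adjusted p = 0.218). The intervals of Klre1 (-0.18 to 0.06), Klri2 (-0.30 to 0.15), Cd69 (-0.17 to 0.32), Klrg1 (-0.40 to -0.02) and Clec2i (-0.91 to 0.27) were those of members that did not pass, and Clec2d missed the filter (0.38 without it, adjusted p = 0.707). Klre1 passed with the block and the offsets together (-0.29, adjusted p = 0.0205), a value outside the interval given. Among the associated genes S1pr1 (3.31), 1 of the 4 egress genes reported here, and Cxcr6 (2.14) were higher in NKG2A+ cells. None of the signalling partners, maturation genes, immediate early genes or other lectin genes was called.

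In NKG2A KO mice, Ly49C/I+ cells were set against uneducated cells, which gives the same contrast in mice labelled as lacking NKG2A. Of 10 members tested 6 were called higher and none lower (edgeR), while 7.34% of 9299 genes were called higher and 8.99% lower, and the median log2 fold change was 0.44 over the members and 0.02 over all genes. Klre1 was at 806, 770, 816, 818 and 892 CPM in Ly49C/I+ libraries 4 to 8 and between 425 and 687 CPM in the 8 uneducated libraries. The groups did not overlap (log2 fold change 0.49, SE 0.0897, adjusted p = 0.00211). Klrb1b was at 366, 252, 239, 249 and 258 CPM, against a lowest value of 156, a median of 188 and a highest of 224 CPM in uneducated cells. It also showed no overlap (log2 fold change 0.53, SE 0.111, adjusted p = 0.00475), with library 4 standing above the others. Klrb1c was at 670, 753, 816, 764 and 607 CPM, against 401, 487 and 637 CPM in uneducated cells, and 4 of 5 libraries lay above that range (log2 fold change 0.51, SE 0.112, adjusted p = 0.00600).

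The other 3 calls were less secure. Cd69 was at 435, 243, 378, 292 and 195 CPM in Ly49C/I+ libraries 4 to 8 and at 131, 167 and 281 CPM in uneducated ones, so that 3 of 5 lay above all of them (log2 fold change 0.71, SE 0.193, adjusted p = 0.0188). The call was lost without a filter (adjusted p = 0.0523), with GC and length offsets (0.123) and when Ly49C/I+ library 4 (0.0736) or 6 (0.0536) was left out. Klri2, at 449, 356, 468, 442 and 507 against 251, 327 and 416 CPM, had a log2 fold change of 0.40 (SE 0.116, adjusted p = 0.0260). It was lost without a filter (0.0706), with GC and length offsets (0.0559), under the replicate block (0.0953), under the block with the offsets (0.170), and on leaving out uneducated library 2 or Ly49C/I+ library 4, 6, 7 or 8 (at most 0.0734). Klrb1a, at 104, 98.5, 109, 83.5 and 79.7 against 41.2, 64.4 and 85.5 CPM, had 0.55 (SE 0.173, adjusted p = 0.0392) and was lost at a filter of 1 CPM (0.0610), without a filter (0.0941), under the block (0.0961) and on leaving out any 1 of uneducated libraries 1, 2, 3 and 8 or Ly49C/I+ libraries 4 to 7 (at most 0.0939).

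Klrg1 was at 325, 612, 558, 554 and 441 CPM against 413, 646 and 856 CPM (log2 fold change -0.42, 95% interval -0.77 to -0.07, adjusted p = 0.0939), and it passed with DESeq2 (0.0413) and without uneducated library 4 (0.0282). Klrb1f (0.20, interval -0.07 to 0.47, adjusted p = 0.297), Clec2i (0.23, adjusted p = 0.570) and Clec2d (-0.46, adjusted p = 0.405) did not pass. Clec2d entered this fit at 4.60, 3.32, 5.20, 3.24 and 1.98 CPM in Ly49C/I+ libraries 4 to 8 and at most 8.35 CPM in uneducated libraries. Of the 9 signalling partners 4 were higher, among them Hcst (0.49), Lck (0.49) and Inpp5d (0.34). S1pr5 was higher (1.03) and S1pr1 lower (-0.98) among the egress genes, Rgs1 (0.54) and Rgs2 (0.43) were higher, and of the maturation genes 4 were higher and Gzmb lower. Klrd1 (0.50) and Klrk1 (0.42) were higher, as were Junb, Dusp1 and Ier2. Of the markers of other cells Epcam alone was called, and it was lower (-1.31). Erythroid markers summed to 200, 576 and 1083 CPM in uneducated and 381, 742 and 1537 CPM in Ly49C/I+ cells.

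The genotypes were compared within each population. Between KO and WT uneducated cells no gene was called higher or lower (0% and 0% of 9288 genes, edgeR quasi-likelihood test), 619 had an unadjusted p under 0.05, and edgeR's likelihood ratio test and DESeq2 called 1 gene each, which was Klrb1b in both. Klrb1b was at 156, 188 and 224 CPM in KO and 118, 133 and 166 CPM in WT uneducated cells. Of 8 KO libraries 6 lay above all WT ones, and all 8 above the WT median, a 1.37-fold difference (log2 fold change 0.45, SE 0.0908, adjusted p = 0.507). It had the smallest unadjusted p of all genes (5.96e-05), and its adjusted p was 0.0461 with the likelihood ratio test and 0.0272 with DESeq2. Klrb1a, at 41.2, 64.4 and 85.5 against 30.8, 41.3 and 61.0 CPM, had a log2 fold change of 0.64 (95% interval 0.29 to 1.00, adjusted p = 0.507). Klrb1f had 0.38 (0.09 to 0.67, adjusted p = 0.636) and Cd69 0.39 (0.08 to 0.69, adjusted p = 0.639).

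The intervals of Klrb1c (-0.06 to 0.49), Klri2 (-0.06 to 0.51), Klre1 (-0.15 to 0.36), Klrg1 (-0.38 to 0.19), Clec2i (-0.32 to 0.72) and Clec2d (-0.50 to 1.00) included 0. No member had groups without overlap here, as 0.0323% of all genes did with KO higher and 0% with KO lower. In these groups the immediate early genes summed to 4790, 6151 and 8199 CPM in WT and 5179, 8180 and 11379 CPM in KO uneducated cells, none of them called.

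In Ly49C/I+ cells the members that stood highest by p were Cd69 and Klrb1b. Again no gene was called in either direction (0% and 0% of 9344 genes, edgeR quasi-likelihood test), although 1001 had an unadjusted p under 0.05. The likelihood ratio test called 62 genes, DESeq2 115 and a fit of all groups 18, each with Cd69 and Klrb1b among them. Cd69 was at 103, 142 and 189 CPM in the 6 WT libraries, so that all 5 KO values given above, from 195 CPM upwards, were higher. The difference was 2.14-fold (log2 fold change 1.10, SE 0.193, 95% interval 0.69 to 1.51, adjusted p = 0.116), with rank 3 by p among all genes. Its adjusted p was 0.000162 with the likelihood ratio test, 1.91e-05 with DESeq2 and 0.00343 with all groups in 1 fit. With each of 11 libraries left out in turn, the quasi-likelihood test gave an adjusted p from 0.0436 to 0.354. Only the fit without KO Ly49C/I+ library 8, which had the lowest Cd69 level of its group, passed. Klrb1b was at most 187 CPM in WT and at least 239 CPM in KO cells (log2 fold change 0.74, SE 0.138, interval 0.45 to 1.04, adjusted p = 0.116). Its adjusted p was 0.00105 with the likelihood ratio test, 0.000396 with DESeq2 and 0.00343 with all groups in 1 fit. These 2 of 9 members tested had KO libraries above all WT ones, as did 0.867% of all genes tested, with 0.706% below.

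For the rest the 95% intervals were 0.22 to 1.18 for Klrb1a (adjusted p = 0.324), 0.10 to 0.55 for Klrb1c (0.327), 0.10 to 0.49 for Klri2 (0.316), -0.07 to 0.52 for Klrb1f (0.596), -0.09 to 0.20 for Klre1 (0.810), -0.28 to 0.34 for Klrg1 (0.962) and -0.78 to 0.50 for Clec2i (0.915). Clec2d missed the filter and had -0.17 without it (adjusted p = 0.935). None of the genes in the other lists was called between genotypes in either population. The labels give no cohort or sequencing batch, so genotype and any batch that followed it cannot be told apart.

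**Figure D4:**
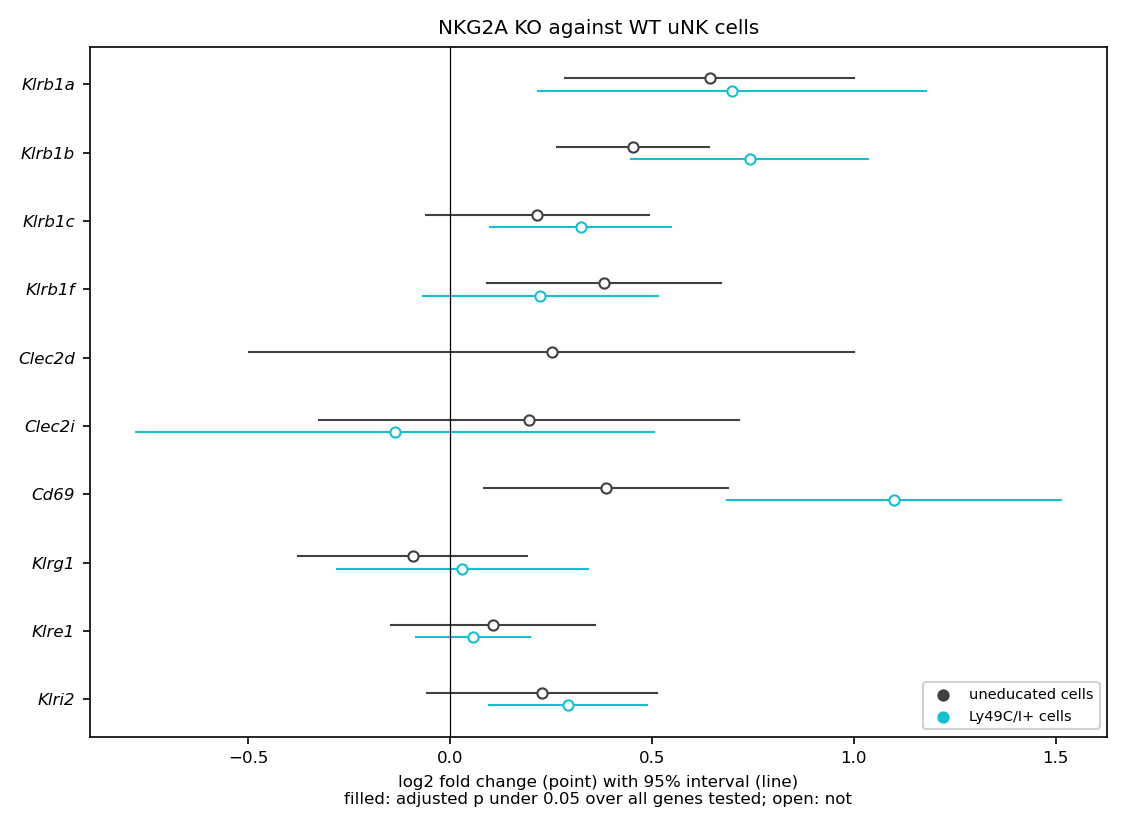
Log2 fold change (point) with its 95% interval (line) of each gene in NKG2A KO against WT cells, for uneducated and Ly49C/I+ cells, where open points have an adjusted p of 0.05 or more over all genes tested, as all do here. Cd69 in Ly49C/I+ cells lies farthest right at 1.10, and Klrg1 and Klre1 lie near 0 in both populations.

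Whether the Ly49C/I+ effect differed between genotypes was tested as an interaction. No gene was called (0% of 9322, edgeR quasi-likelihood test), 414 had an unadjusted p under 0.05, and DESeq2 called 1, which was no member. For Cd69 the effect was 0.71 in KO and 0.001 in WT mice, and the difference was 0.70 (SE 0.249, 95% interval 0.19 to 1.21, unadjusted p = 0.00862, adjusted p = 0.998). The intervals of the differences were -0.05 to 0.60 for Klrb1b, -0.55 to 0.63 for Klrb1a, -0.30 to 0.49 for Klrb1c and -0.40 to 0.27 for Klre1. The call of Klrb1b in KO and not in WT mice was thus not shown to be a difference between them.

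Cd69 is itself an early response gene, and its level is therefore given beside that of 12 immediate early genes. Their sum was 14664, 11238, 10915, 10032 and 9076 CPM in KO Ly49C/I+ libraries 4 to 8, and 7806, 8500 and 10886 CPM (lowest, median and highest) in WT Ly49C/I+ cells. In NKG2A+ cells it was 6206, 8628 and 10298 CPM. KO Ly49C/I+ library 4 had both the highest sum and the highest Cd69 level, and the sums of KO Ly49C/I+ libraries 4, 5 and 6 lay above those of all WT libraries, where Cd69 was at most 197 CPM. The order was not the same throughout. KO Ly49C/I+ library 5 had a higher sum than library 7 but less Cd69, at 243 against 292 CPM. WT Ly49C/I+ library 7, with a sum of 10886 CPM, had Cd69 at 150 CPM. The part of the immediate early genes in the Cd69 level was not tested.

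**Figure D5:**
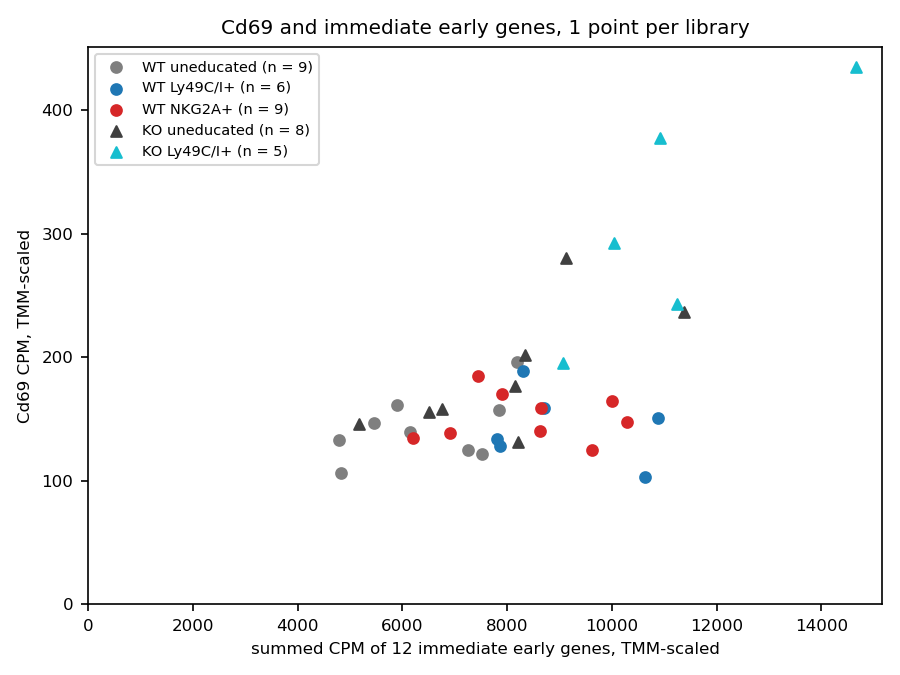
Cd69 level (CPM) against the summed level of 12 immediate early genes (CPM), 1 point per library, circles for WT and triangles for NKG2A KO. KO Ly49C/I+ library 4 lies at the upper right, at 435 and 14664 CPM, and all WT points are at or below 197 CPM of Cd69.

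Of the other NKR-P1 and Clec2 genes only Klrb1 reached the filter, at group means between 7.68 and 8.57 CPM, and it was called in no comparison. Clec2g was at a count of 0 in all 37 libraries and Clec2e was at 0 in all libraries of 4 groups and reached at most 0.425 CPM in WT uneducated cells. Klri1, the inhibitory partner of KLRE1, was far below Klri2, at group means between 5.80 and 12.6 CPM, and was not called in any comparison.

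The genes whose 5 group means ran most like those of a member were found over 9287 genes, as the root mean square difference of centred group means on the log2(CPM + 1) scale. For Klrb1b they were Rxra (0.0740) and Maf (0.0872), which encode transcription factors, and for Klrb1a Ccl5 (0.0536), a chemokine gene, and Rasgrp2 (0.0645). Il10rb (0.0192) and Ppp1r13b (0.0280) were nearest to Klrb1c, and Mosmo (0.0284) and Ubr7 (0.0324) to Klrb1f. Klrg1 was nearest to Alg9 (0.0418) and to Gzmb (0.0458), the granzyme B gene that was also lower in both receptor-bearing populations. Cd69 had less close neighbours in Bcdin3d (0.0830) and Dgkq (0.0937). Ccnt2 (0.0149) and Lats2 (0.0251) were nearest to Klre1, Card19 (0.0173) and Thap3 (0.0193) to Klri2, and Rexo1 (0.0135) and Zfp319 (0.0187) to Clec2i. Each likeness rests on 5 group means and describes no more than those.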

How the data were processed

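Bulk RNA-seq of sorted uNK cells was analysed in 37 libraries of 5 groups, grouped by the sample labels. The authors amplified cDNA with SMART-Seq v4, made Nextera XT libraries, trimmed reads with Trim Galore 0.5.0, mapped them with STAR 2.7.1 to GRCm38 and deposited raw counts per Ensembl gene, without normalization (versions from the submitters' processing notes). Neither the counting program nor its use of strand is given in the sources used here. The 5 summary lines at the end of a file were dropped. Among them were reads on no gene, at 2.90% to 4.47% (median 3.32%) in WT uneducated and 4.16% to 6.83% (median 5.12%) in WT Ly49C/I+ libraries. The median was 3.81% in NKG2A+, 3.33% in KO uneducated and 4.12% in KO Ly49C/I+ libraries. Whether this share bore on the results was not tested. The summary lines also held reads set aside as ambiguous (4.04% to 4.60% per library) and as not uniquely aligned (11.3% to 13.8%). Reads of near-identical copies, or of a gene and an antisense partner, may be among these, so such genes may be undercounted. No molecular identifiers were used and reads from amplified cDNA are not independent, so depth and counting limits cover counting error only.

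Groups were compared on these counts by edgeR 4.0.16 under R 4.3.3 (quasi-likelihood test, TMM factors, Benjamini-Hochberg adjustment over all genes tested, threshold 0.05), on genes that reached 5 CPM in 0.5 or more of the libraries in the comparison, fitting the compared groups alone, except the interaction, which used 4 groups. The test was tried on simulated counts first. Alternatives were DESeq2 1.42.0, the likelihood ratio test of edgeR, a filter of 1 CPM or none, RLE factors, spline offsets for GC content and length (5 degrees of freedom) in place of the authors' CQN, all groups in 1 fit, no WT uneducated and NKG2A+ libraries numbered 5, the replicate number as a block, and each library left out in turn. Fits without NKG2A+ libraries 1, 3 and 4 or without WT Ly49C/I+ libraries 1 and 2 were chosen after seeing the data. The 10 genes and all lists were chosen with earlier results of these data known. All 10 are named, with at most 3 called genes per list and comparison, by adjusted p, and the 2 genes of most similar group means. Symbols, positions and lengths came from GENCODE M21, in which 52093 of 53700 identifiers have a symbol. WT uneducated library 5 was numbered by its title, since its description repeats another number, and WT Ly49C/I+ libraries by their descriptions. Values of some genes on the lists are not reported here.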

Additional observations from a re-analysis of the deposited data

Results flagged for a closer look

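Each of 10 genes in 5 groups was searched for a library far from the rest of its group, which chance alone gives in about 1 in 20 groups (2.5 of 50), and 4 were found. Klrb1b was at 366 CPM in KO Ly49C/I+ library 4, with the next library of the group at 258 CPM. The same library had the highest Cd69 level and the highest sum of immediate early genes of that group. Klrb1f was at 134 CPM in NKG2A+ library 9, below the next lowest at 166 CPM. Clec2i was at 43.2 CPM in WT uneducated library 5, above the next at 24.3 CPM, and Klre1 was at 888 CPM in NKG2A+ library 6, above the next at 778 CPM.

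The difference between NKG2A+ and uneducated cells was larger than that between Ly49C/I+ and uneducated cells, by the direct test of the receptor-bearing populations, for Klrb1b (log2 fold change 1.08, edgeR adjusted p = 3.86e-05) and Klrb1a (0.77, adjusted p = 0.0312). All 9 NKG2A+ libraries showed this direction against the median Ly49C/I+ library for both genes. The call of Klrb1a was lost in several alternatives, among them no filter on low counts (adjusted p = 0.0880) and GC and length offsets (0.0713).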

How the results depend on the processing

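Of 1458 values of single genes under the alternatives, 1363 kept their direction and side of the threshold, 37 lost and 33 gained a call, and 25 changed sign. All 50 group levels moved by less than 1 SD without TMM scaling. The 6 calls of NKG2A+ against uneducated cells were kept on leaving out any library. Where a result changed below, the cause was not tested.

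Only counts that changed by more than a set ratio are given here, and smaller changes are left out. Ly49C/I+ against uneducated, WT (864 genes, 2 members): 451 genes without a filter, 1528 with all groups in 1 fit and 531 without Ly49C/I+ libraries 1 and 2, and 5 members with all groups, 4 with the replicate block and 6 with the block and GC offsets. NKG2A+ against Ly49C/I+ (254 genes, 2 members): 442 with the likelihood ratio test, 558 with DESeq2, 104 without a filter and 78 without NKG2A+ libraries 1, 3 and 4, and 1 member without a filter, with GC offsets, without these libraries and with the block. Ly49C/I+ against uneducated, KO (1519 genes, 6 members): 889 genes and 3 members without a filter, and 748 and 647 genes with the block alone and with GC offsets. Fewer members were also called there with the block, where Klrb1a and Klri2 lost their calls. The same held with GC offsets alone, where Cd69 and Klri2 lost theirs. KO against WT (0 genes): 1 gene and 1 member in uneducated cells with the likelihood ratio test and with DESeq2, and in Ly49C/I+ cells 62, 115 and 18 genes with these tests and all groups, 2 members in each, and 3 genes without WT Ly49C/I+ libraries 1 and 2. The interaction gave 1 gene with DESeq2 and 1 without these libraries. Leaving out single libraries was not run for it.

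On leaving out 1 library, calls ranged from 1118 to 1687 genes and 6 to 6 members (NKG2A+ against uneducated), 461 to 1234 and 1 to 4 (Ly49C/I+ against uneducated, WT: 573, 534 and 575 genes without uneducated libraries 1, 3 and 4, 564 without Ly49C/I+ library 5, 461 and 1 member without 7, and 4 members without uneducated library 6), 147 to 306 and 1 to 3 (NKG2A+ against Ly49C/I+: 168 and 163 genes without NKG2A+ libraries 2 and 8, and 154, 155 and 147 without Ly49C/I+ libraries 2, 5 and 7), 967 to 1763 and 3 to 7 (KO, both lowest without Ly49C/I+ library 4, and 3 members also without 6), 0 to 0 and 0 to 0 (genotype, uneducated) and 0 to 15 and 0 to 1 (genotype, Ly49C/I+, 15 without WT library 1, and 2 genes and Cd69 without KO library 8).

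Sign changes were of small values. Cd69 had -0.19 with GC offsets and -0.17 with the block as well for NKG2A+ against uneducated cells, -0.0056 at 1 CPM, -0.075, -0.020 and -0.092 to 0.082 (libraries left out) for Ly49C/I+ against uneducated cells, and -0.13, -0.18 and -0.0045 to 0.17 for NKG2A+ against Ly49C/I+. Klri2 had 0.011 in the last without NKG2A+ libraries 1, 3 and 4 and -0.064 for the interaction with GC offsets. In KO against WT Ly49C/I+ cells Klre1 had -0.031 with GC offsets, Clec2i -0.32 to 0.040 and Klrg1 -0.057 to 0.15 with libraries left out.

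No source says what a shared replicate number stands for, and the rule that every pair correlate above 0.1 was not met. Correlations of same-numbered deviations were -0.027 to 0.24, 0.074 to 0.19, 0.034 to 0.11 and 0.024 to 0.27 in the 4 population comparisons, and 6 of 9, 5 of 6, 6 of 6 and 3 of 5 libraries were most like that of their own number, which is a hint of pairing from the data and not from the design. With the block Klri2 was also called in NKG2A+ cells (0.29, edgeR adjusted p = 0.0414).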

Other observations

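Genes within 1.1 Mb of Klrc1, a window chosen after the values were seen, were counted in the genotype comparisons. Its edge lies just beyond Klrb1a, at 1.042 Mb. The counts include members whose values are given above, so they describe the window and do not test it. In uneducated cells 8 of 31 tested had an unadjusted p under 0.05, 25.8% against 6.66% of all genes, and all 8 were higher in KO cells. They were 4 members (Klrb1a, Klrb1b, Klrb1f and Cd69) and, of 22 other genes, Klrc2, Klrk1, Klra1 and Klra9, named here after their values were seen. In Ly49C/I+ cells 14 of 29 had such a p, 48.3% against 10.7% of all genes, and again all were higher, 5 of them members and 9 of 21 other genes. None passed the adjusted threshold (edgeR quasi-likelihood test). Klrg1, 7.38 Mb from Klrc1, had -0.09 and 0.03 in these comparisons, but it is only 1 gene outside the window, and distance from Klrc1 was not tested. Neighbouring genes are not independent, reads of their near-identical copies may have been set aside, and no further test was made.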
